A study of Mus musculus with 8 samples.

Results

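The genes of the fibroblast growth factor (FGF) system were followed from mouse embryonic stem cells (ESCs) to neural precursor cells (NPCs). Every gene of the count tables whose symbol names an FGF, an FGF receptor (Fgfr1 to Fgfr4), a Sprouty (Spry1 to Spry4) or Spred (Spred1 to Spred3) protein, or which is Dusp6, Etv1, Etv4 or Etv5, was taken, and this gave 37 of the 26263 genes. The rule uses symbols and no measured value, but it was set with earlier results of these data known. The series holds 8 polyA RNA-seq libraries from hybrid male cells of the strains C57BL/6 and JF1, with 2 replicates in each of 4 groups. The B/J libraries (genotype C57BL/6 x JF1) came from the line BJE2 and the J/B libraries (JF1 x C57BL/6) from the line JBE6, so that each cross is represented by 1 line and cross and line cannot be told apart. ESCs of both lines were kept on gelatin in ESGRO complete plus medium, which contains the cytokine LIF, the growth factor BMP4 and an inhibitor of the kinase GSK3-β. NPCs were collected from the same lines at day 12 of in vitro corticogenesis, a protocol that drives ESCs towards cortical neurons, on Matrigel and in a defined medium with B27 lacking vitamin A and with dorsomorphin homolog 1, an inhibitor of BMP signalling. The sources do not say that replicates were separate cultures, so the p-values measure only the spread between these libraries. They also do not say which library was made with which of the kits and sequencers named, so a batch of that kind could not be examined.

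FGFs are secreted proteins that bind receptor tyrosine kinases together with heparan sulfate, and the bound receptors signal through RAS to the kinase ERK. ERK signalling switches on the transcription factors Etv4 and Etv5 and a set of inhibitors (Sprouty and Spred proteins and the ERK phosphatase Dusp6) that dampen the same pathway. In mouse ESCs, FGF4 made by the cells themselves primes them to leave self-renewal, while in the developing brain other FGFs and their receptors pattern the neural tissue and maintain its precursors.

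The libraries held 22537138 to 32706015 reads on genes, so 1 read corresponds to 0.0306 to 0.0444 CPM (counts scaled to one common library total) before normalization. Levels are given as normalized CPM, on library totals corrected by the TMM method. On that scale 1 read corresponds to 0.0256 (NPC J/B replicate 1) to 0.0533 (ESC J/B replicate 1). Any 4 values in a row stand for B/J replicate 1, B/J replicate 2, J/B replicate 1 and J/B replicate 2. For differences between stages, the quasi-likelihood test of edgeR was used, with p-values adjusted over all 16399 genes tested by the Benjamini-Hochberg method at a threshold of 0.05. The labels were checked against marker genes: the 8 markers of naive pluripotency summed to 2729 to 4766 normalized CPM in ESCs and 63.6 to 179 in NPCs, and 6 of 7 markers of neural precursors were higher in NPCs, with sums of 126 to 489 against 20.6 to 57.0. The exception was Pax6, at 16.9, 4.11, 1.23 and 10.7 in ESCs and 6.98, 27.4, 45.9 and 40.0 in NPCs (adjusted p = 0.0606), and within B/J 4 of the 7 were called. The NPC libraries also held RNA of other kinds of cell. The 9 trophoblast markers summed to 1163 to 3094 normalized CPM against 33.8 to 115 in ESCs, with 8 of 9 higher in NPCs, and Tpbpa and Pappa2 at 0 in every ESC library. The 8 mesenchymal markers summed to 771 to 1916 against 4.95 to 69.6, with 8 of 8 higher. The 6 endoderm markers summed to 14.5 to 64.9 against 3.26 to 6.08, with 5 of the 5 tested higher. In such bulk libraries, fewer cells of a type and less RNA per cell cannot be told apart, and the part of these other cells in the differences below was not tested.

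Of the 37 genes, 30 passed the filter on low counts. Between ESCs and NPCs, 11 of them rose and 10 fell, while 9 did not pass the threshold. Over all genes tested, 37.5% rose and 31.9% fell, so the numbers called are near the background, and what follows concerns which genes moved and how far. Every NPC library lay above every ESC library for 12 of the 37 genes and below for 10, while the stages overlapped for 15. Over all genes tested, the same held for 35.3% and 31.2%. That share leaves out genes that did not pass the filter, whereas the 37 include 7 of them, with Fgf16 among the 12. The median log2 fold change was -0.33 over the 30 genes and 0.17 over all genes tested. The genes that passed only because of their NPC level, such as Fgf2, Fgf9, Fgf12 and Fgf14, could only differ upwards, which limits the reading of these counts. Scaling by the library totals moved the median over all genes to 0.65 and scaling by the housekeeping genes Gapdh, Gusb and Tbp to 0.80, so small falls depend on the scaling.

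**Figure D1:**
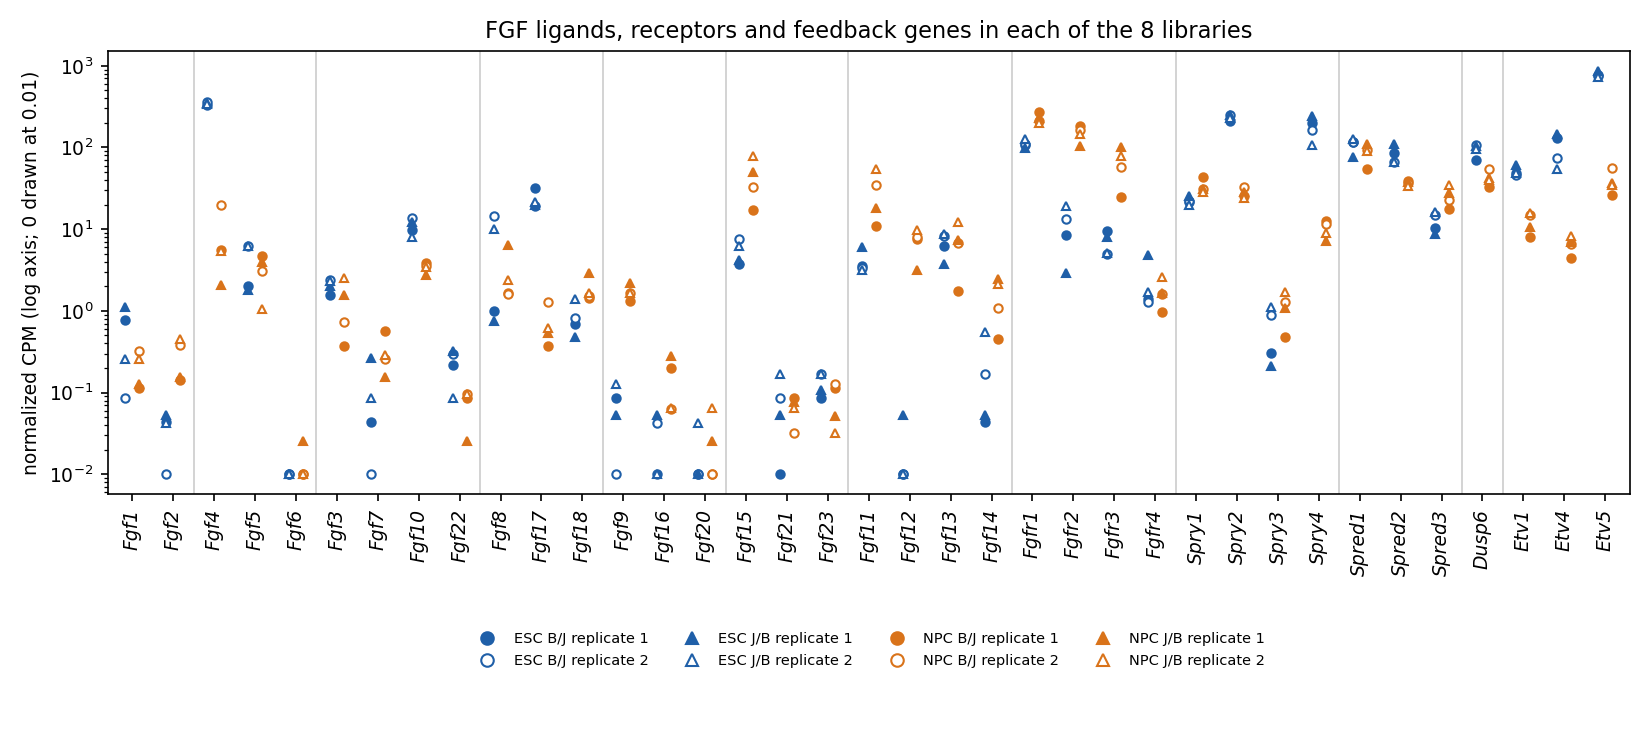
Normalized CPM of the 37 FGF-system genes on a log axis, 1 symbol per library (ESCs blue, NPCs orange, B/J circles, J/B triangles, replicate 1 filled, replicate 2 open), with 0 drawn at 0.01 and grey lines between groups of related genes. Fgf4 lies at 329 to 362 in ESCs and 2.05 to 19.7 in NPCs, and the receptor genes Fgfr1, Fgfr2 and Fgfr3 lie higher in every NPC library than in any ESC library.

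The ligand gene with the largest fall was Fgf4 (chr7:144401104-144418985, GRCm39), whose product is the main FGF made by mouse ESCs. It was read at 329, 362, 348 and 336 normalized CPM in the ESC libraries and at 5.58, 19.7, 2.05 and 5.39 in the NPC libraries. The ESC values were nearly equal, all NPC values were far below them, and NPC B/J replicate 2 was the highest of the NPC libraries. The difference was a log2 fold change of -5.65 (SE 0.49, adjusted p = 5.68e-05), or 50.4-fold lower in NPCs, and it was -6.25 without NPC B/J replicate 2. In that same NPC library, the pluripotency gene Nanog was at 37.3 normalized CPM and Esrrb at 27.4, against 6.22 to 11.1 and 5.45 to 9.72 in the others, and the part of residual pluripotent cells was not tested.

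Fgf17, a ligand of the FGF8 subfamily, followed Fgf4 in direction. Its ESC values were 31.7, 19.5, 19.7 and 21.4 normalized CPM and its NPC values 0.370, 1.28, 0.537 and 0.614. ESC B/J replicate 1 stood above the other ESC libraries, and the stages did not overlap. Fgf17 fell by 5.05 on the log2 scale (SE 0.43, adjusted p = 5.11e-05). Fgf10, a ligand of the FGF7 subfamily that acts mainly on epithelia through FGFR2, was read at 9.72, 13.7, 12.3 and 8.01 in ESCs and 3.84, 3.57, 2.76 and 3.49 in NPCs. Again no NPC library reached an ESC library, and the change was a log2 fold change of -1.68 (SE 0.28, adjusted p = 0.00105).

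Fgf15, the mouse counterpart of human FGF19 and a ligand expressed in the embryonic brain, moved the other way. Its ESC libraries stood at 3.78, 7.48, 4.16 and 6.18 normalized CPM and its NPC libraries at 17, 32.6, 49.8 and 78.3. All NPC values were above the ESC values, but they spread over a wide range, lowest in NPC B/J replicate 1 and highest in NPC J/B replicate 2. Fgf15 rose with a log2 fold change of 2.88 (SE 0.34, adjusted p = 2.16e-04), or 7.37-fold. The summed neural precursor markers were also lowest in NPC B/J replicate 1, at 126 against 309 to 489 in the other NPC libraries. The part of this difference in makeup was not tested.

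Fgf3, Fgf4 and Fgf15 lie beside each other on chromosome 7, in the same orientation, with Fgf3 at chr7:144391599-144398173 and Fgf15 at chr7:144450268-144454690 on either side of Fgf4. The neighbours differed in direction: Fgf4 fell, Fgf15 rose and Fgf3 was not called. Fgf3, an FGF known for inner ear and hindbrain development, was at 1.56, 2.39, 2.03 and 2.34 normalized CPM in ESCs and 0.370, 0.734, 1.56 and 2.52 in NPCs. Its 2 B/J NPC libraries were well below every ESC library, NPC J/B replicate 1 was level with the lowest ESC library and NPC J/B replicate 2 was the highest of all 8. The pooled log2 fold change of -0.97 (SE 0.42, adjusted p = 0.0673) missed the threshold, although within B/J alone Fgf3 was called lower, at -1.84 (adjusted p = 0.0329). The difference between crosses in this change was not called (adjusted p = 1.0). With limma-voom, with the replicate number as a block, or with a block of its own in each stage, the pooled fall of Fgf3 passed, at adjusted p = 0.0497, 0.0293 and 0.0203.

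Among the ligands that were all but silent in ESCs, Fgf9, a ligand of neurons and mesenchyme, was read 6 times in the 4 ESC libraries together and 237 times in the NPC libraries. Its NPC values were 1.34, 1.66, 2.23 and 1.65 normalized CPM against 0.0868, 0, 0.0533 and 0.128 in ESCs, without overlap, and the log2 fold change of 4.65 (SE 0.70, adjusted p = 6.43e-04) was called. Its size rests on few ESC reads and was 6.38 without ESC B/J replicate 1. Fgf2, which promotes growth of neural precursors in culture, had 3 reads in ESCs and 37 in NPCs, a ratio of pooled normalized levels of 8.01 (exact 95% interval 2.54 to 40.6). That interval covers counting error only. The edgeR call for Fgf2 (adjusted p = 0.0195) was lost with DESeq2 (adjusted p = 0.0547) and on leaving out any of 5 libraries: ESC B/J replicate 2 (0.0723), ESC J/B replicates 1 (0.0502) and 2 (0.0585), NPC B/J replicate 2 (0.0838) and NPC J/B replicate 2 (0.0904). Exons of Fgf2 share 3073 bases with Nudt6 on the opposite strand, and since the sources do not give the strand setting of the counting, reads of the pair may not be told apart.

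The remaining ligands were not called. Fgf18, of the FGF8 subfamily, was at 0.694, 0.812, 0.480 and 1.41 normalized CPM in ESCs and 1.45, 1.53, 2.89 and 1.68 in NPCs. The stages did not overlap, but the log2 fold change of 1.12 (SE 0.47, adjusted p = 0.0621) missed the threshold, and it passed in 5 alternatives: a block of its own for the replicate number in each stage (adjusted p = 0.0262), housekeeping scaling (0.0148), library totals (adjusted p = 0.0184), limma-voom (0.0463) and leaving out ESC J/B replicate 2 (0.0216). Fgf1, a ligand of all 4 receptors, was low throughout, with 0.781, 0.0855, 1.12 and 0.256 normalized CPM in ESCs and 0.114, 0.319, 0.128 and 0.258 in NPCs, and its log2 fold change of -1.40 (SE 0.85, adjusted p = 0.171) was not called and shrank to -0.25 without ESC B/J replicate 1 and to -0.71 without ESC J/B replicate 1. Fgf6, Fgf7, Fgf16, Fgf20, Fgf21, Fgf22 and Fgf23 did not pass the filter on low counts, and their levels stayed at or below 0.570 normalized CPM, the value of Fgf7 in NPC B/J replicate 1. Fgf16 was the only one of them whose NPC libraries all lay above its ESC libraries, with 22 reads against 2, and Fgf6 had a single read in all 8 libraries.

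Fgf5 and Fgf8 were not called between stages, and their ESC libraries were split. Fgf5, a marker of the epiblast after implantation, was at 2.04, 6.16, 1.81 and 6.27 normalized CPM in ESCs and at 4.64, 3.06, 3.94 and 1.07 in NPCs. Fgf8, a ligand of the gastrulating embryo and of the isthmus between midbrain and hindbrain, was at 0.998, 14.3, 0.746 and 9.93 in ESCs and at 1.65, 1.63, 6.40 and 2.39 in NPCs. In both crosses the ESC library numbered 2 was well above the one numbered 1, and the stages overlapped. The log2 fold change was -0.39 for Fgf5 (SE 0.60, adjusted p = 0.582) and -1.25 for Fgf8 (SE 0.93, adjusted p = 0.259). Leaving out ESC B/J replicate 2 or ESC J/B replicate 2 turned both signs, with no call. Fgf8 was highest among the NPC libraries in J/B replicate 1. There the isthmus gene En1 was at 16.0 normalized CPM against 2.25 to 3.81 in the other NPC libraries. The primitive streak gene T was at 144.9 against 8.52 to 36.6. Both were picked after their values were seen, from lists of 6 and 5 markers. The isthmus and hindbrain list summed to 73.4 in that library against 20.2 to 50.9 in the other NPC libraries. The streak and caudal list summed to 147 against 9.99 to 38.6, and nearly all of the 147 was T. Whether En1 and T share a source with Fgf8 was not tested.

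Levels of different genes can be compared only per length, so CPM were divided by the kilobases of exon of each gene in the GENCODE annotation of GRCm39. On this scale, the 18 genes of secreted ligands summed to 125 ± 7.71 CPM per kb in ESCs and 22.9 ± 8.65 in NPCs (SD, n = 4 libraries each). Fgf4 made up 80.6% ± 3.30 of the ESC sum and 12.0% ± 11.2 of the NPC sum, where it ranged from 2.31% to 27.0%. Fgf15 went from 1.40% ± 0.371 to 59.6% ± 14.6 and was the leading ligand gene in all 4 NPC libraries. Fgf17 was second in the ESC sum, with 10.7%, and made up 1.87% of the NPC sum. Fgf8 held 3.70% ± 3.73 and 9.91% ± 6.00, and its ESC shares were split, at 0.617%, 7.81%, 0.464% and 5.90%. These shares are descriptions without a test. With the longest transcript as length, Fgf15 held 68.3% of the NPC sum.

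**Figure D2:**
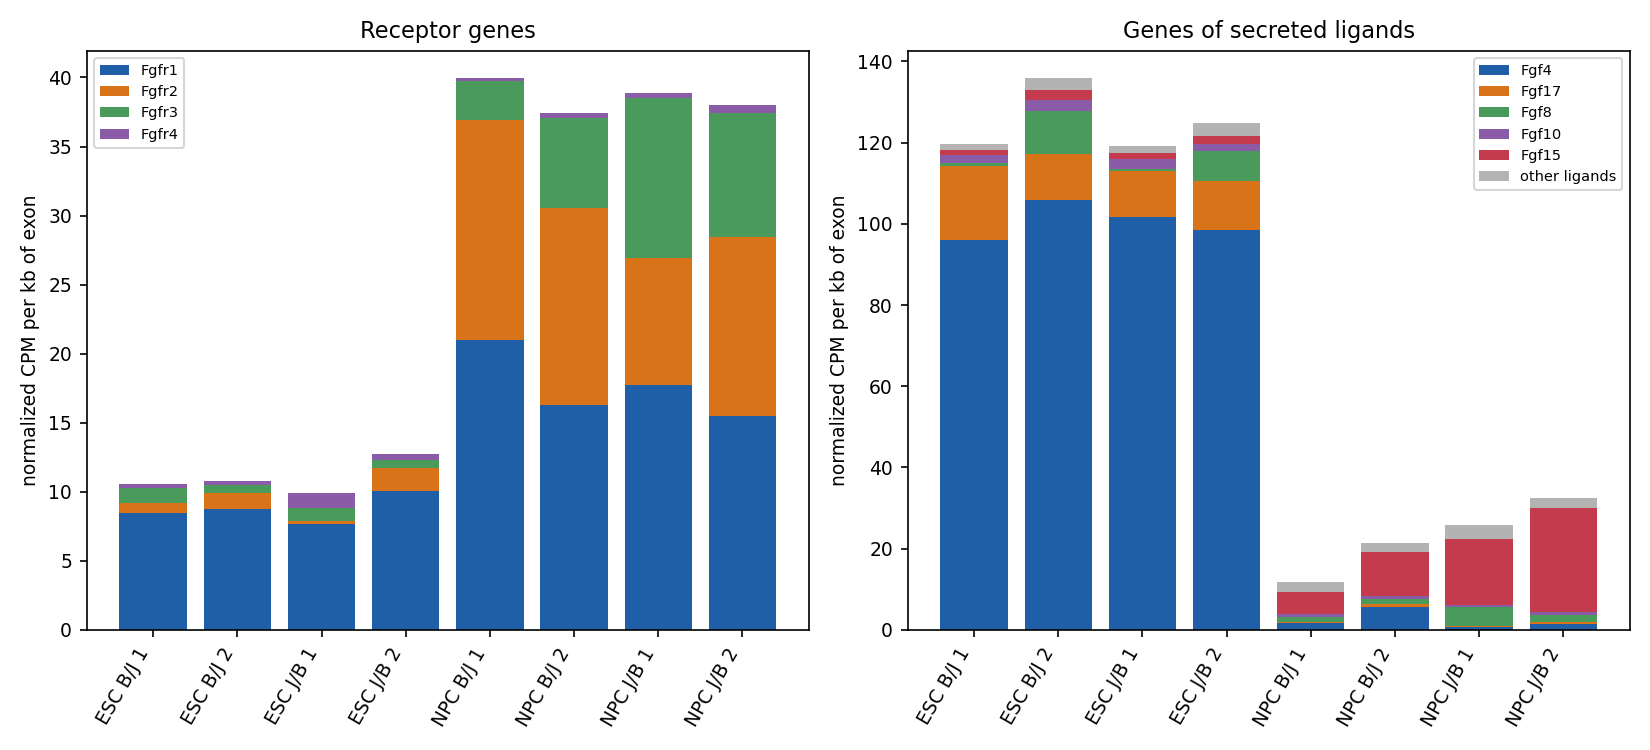
Stacked bars of normalized CPM per kb of exon in each of the 8 libraries, for the 4 receptor genes (left) and the 18 genes of secreted ligands (right, with the 13 not named summed in grey). The receptor sum is 9.89 to 12.7 in ESCs and 37.4 to 39.9 in NPCs, while the ligand sum is lower in every NPC library and its main part changes from Fgf4 to Fgf15.

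The FGF homologous factors Fgf11, Fgf12, Fgf13 and Fgf14 are relatives of the ligands that stay inside the cell and bind voltage-gated sodium channels in neurons. Of the 4, 3 rose and Fgf13 was not called. Fgf12 and Fgf14 passed the filter on low counts only through their NPC libraries, so the direction of their calls was fixed in advance. Fgf11 was at 3.56, 3.38, 5.97 and 3.20 normalized CPM in ESCs and 10.8, 34.7, 18.3 and 54.6 in NPCs. In both crosses the NPC library numbered 2 was higher than the one numbered 1, all NPC values were above the ESC values, and the log2 fold change of 2.85 (SE 0.50, adjusted p = 0.00153) was called. Fgf12 had 1 read in the 4 ESC libraries and 938 in the NPC libraries, at 7.49, 8.01, 3.17 and 9.69 normalized CPM. The ratio of pooled levels was 609, with an exact 95% interval from 109 to 24084 for counting error, and the adjusted p was 1.30e-04 in edgeR's quasi-likelihood test. Fgf14, at 0.0434, 0.171, 0.0533 and 0.554 in ESCs and 0.456, 1.09, 2.48 and 2.13 in NPCs, rose with a log2 fold change of 2.83 (SE 0.75, adjusted p = 0.0106), although NPC B/J replicate 1 lay below ESC J/B replicate 2. Leaving out ESC J/B replicate 2 gave 4.07 for Fgf14, and leaving out ESC B/J replicate 2 gave 3.45. Exons of Fgf14 share 4526 of their 8361 bases with genes on the opposite strand, among them Itgbl1, so that its reads may not be told apart from theirs, as for Fgf2. The other called genes with such a partner share 92 (Fgf17) to 1157 bases (Fgfr3). Fgf13 was at 6.21, 8.21, 3.79 and 8.61 and 1.74, 6.77, 7.47 and 12.2. Its log2 fold change of -0.05 (SE 0.48, adjusted p = 0.932) is a value near 0 whose sign depends on the scaling. The 7 neuronal markers summed to 217 normalized CPM in NPC B/J replicate 1, which had the lowest Fgf11, Fgf13 and Fgf14 among the NPC libraries but not the lowest Fgf12, and to 597 to 1254 in the others. The part of neurons in these rises was not tested.

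All but 1 of the receptor genes rose. Fgfr1, the receptor gene of ESCs, was at 108, 111, 97.6 and 128 normalized CPM in ESCs and 268, 208, 227 and 198 in NPCs. Fgfr2, a receptor of epithelia and neural precursors, was at 8.38, 13.3, 2.88 and 19.4 in ESCs, lowest in J/B replicate 1, and at 181, 162, 104 and 147 in NPCs. Fgfr3, a receptor enriched in neural precursors and astrocytes, was at 9.38, 4.96, 8.05 and 5.12 and 24.6, 57.3, 102 and 79.6. For none of these 3 receptors did a library of one stage reach the other. The log2 fold changes were 1.01 for Fgfr1 (SE 0.15, adjusted p = 5.65e-04), 3.73 for Fgfr2 (SE 0.53, adjusted p = 5.24e-04) and 3.15 for Fgfr3 (SE 0.35, adjusted p = 1.66e-04). Without ESC J/B replicate 2, Fgfr2 stood at 4.72. Fgfr4, known from endoderm and muscle, was low in both stages, with 1.39, 1.28, 4.80 and 1.71 normalized CPM in ESCs and 0.968, 1.63, 1.66 and 2.62 in NPCs. The value of ESC J/B replicate 1 was above all others, and the log2 fold change of -0.32 (SE 0.45, adjusted p = 0.543) was not called. Without that library the sign of Fgfr4 turned, to 0.14.

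Per kb of exon, the receptor genes summed to 11 ± 1.21 CPM in ESCs and 38.6 ± 1.09 in NPCs, and the 4 libraries of each stage lay close together. Their proportions changed. Fgfr1 made up 79.4% ± 1.66 of the sum in ESCs and 45.6% ± 5.03 in NPCs, still the largest share in each NPC library. Fgfr2 went from 8.48% ± 4.75 to 33.9% ± 7.28, and Fgfr3 from 7.26% ± 2.76 to 19.5% ± 9.74. The balance of the latter pair varied between NPC libraries: Fgfr3 held 6.99% in NPC B/J replicate 1 and 29.8% in NPC J/B replicate 1, where Fgfr2 held 39.9% and 23.7%. Fgfr4 held 4.91% and 1.01%, and its ESC share came mostly from ESC J/B replicate 1 (11%, against 2.70% to 3.03% in the others) and was 2.90% without that library. With the longest transcript as length, the receptor sums were 22.1 and 76.8. In the GENCODE annotation, exons of Fgfr2 share 314 bases with Ctbp2 on the same strand. The authors used refGene-based gene models, so whether this overlap affects the counts is not known.

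**Figure D3:**
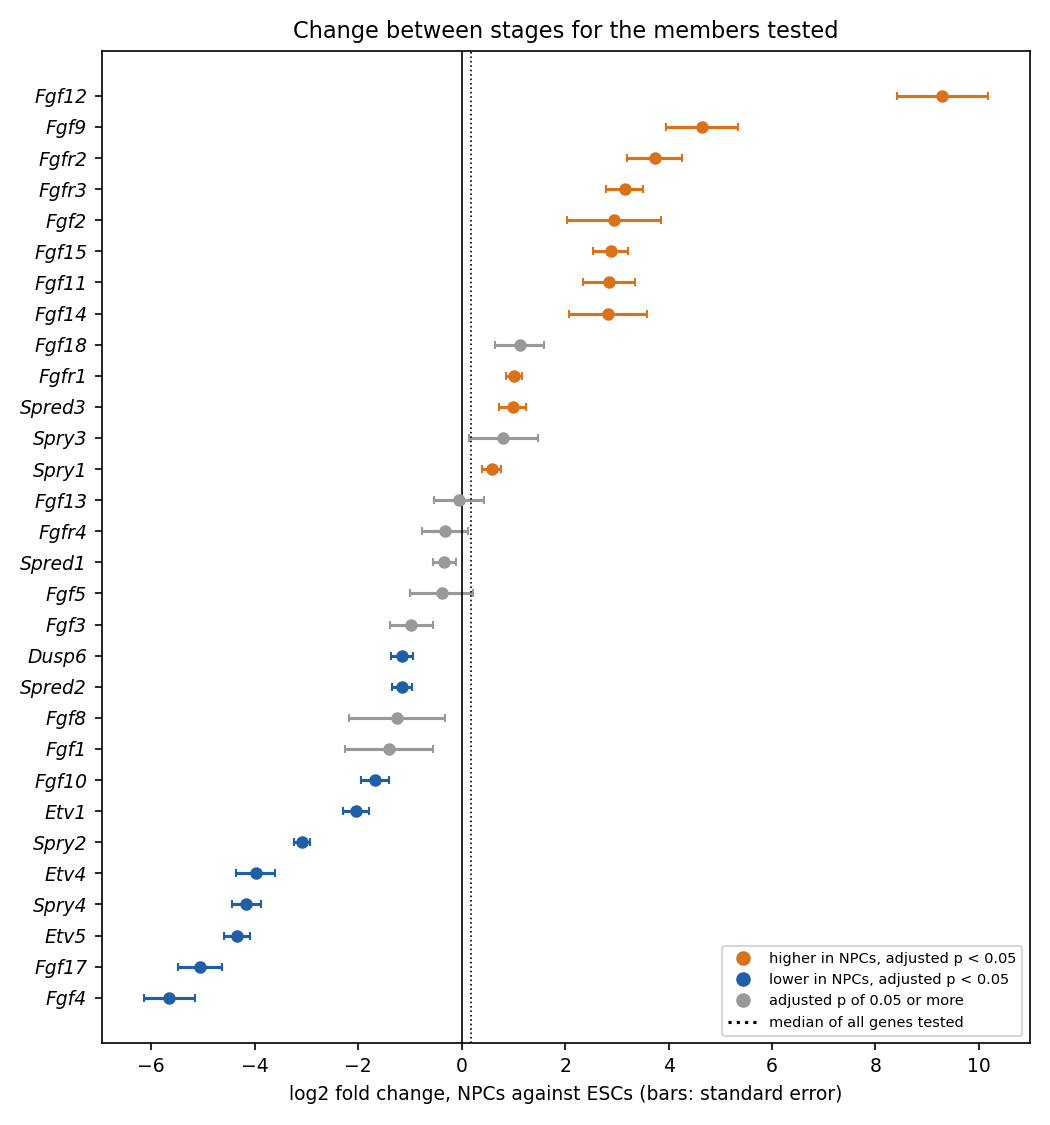
Log2 fold change of NPCs against ESCs (x axis) with its standard error for the 30 FGF-system genes tested, ordered by value, with rises in orange, falls in blue and genes not past the threshold in grey, and a dotted line at the median of all genes tested (0.17). Fgf4, Fgf17, Etv5, Spry4 and Etv4 are at the lower end and Fgf12, Fgf9, Fgfr2 and Fgfr3 at the upper end.

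Targets and inhibitors of the pathway were examined next. The 3 transcription factors of the PEA3 type of the ETS family, Etv1, Etv4 and Etv5, all fell. Etv5 was at 776, 741, 865 and 721 normalized CPM in ESCs and 26.5, 55.4, 36.9 and 34.8 in NPCs, a log2 fold change of -4.34 (SE 0.25, adjusted p = 1.67e-05) or 20.2-fold lower. Etv4 was at 132, 73.5, 147 and 54.5 in ESCs, where both libraries numbered 2 were lower than both numbered 1, and at 4.50, 6.54, 6.88 and 8.17 in NPCs, and its change was -3.98 (SE 0.38, adjusted p = 8.15e-05). Etv1, at 48.9, 45.6, 61.7 and 48.2 and 7.92, 15.1, 10.6 and 15.6, fell by 2.05 on the log2 scale (SE 0.25, adjusted p = 2.40e-04). For each of the 3 genes, all NPC libraries lay below all ESC libraries.

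Etv4 and Etv5 are textbook targets of Capicua (Cic), a repressor that ERK signalling inactivates and that binds the octamer TGAATGAA or its variants TGAATGGA, TCAATGAA and TCAATGGA. The 250 bases before the annotated start of both genes are shown because these octamers lie in them, and the window of Dusp6 is shown because it has none. The windows are those of the GRCm39 genome, on the minus strand at chr11:101676198-101676447 for Etv4 and at chr16:22258484-22258733 for Etv5 and on the plus strand at chr10:99098818-99099067 for Dusp6, written 5′ to 3′ with the octamers in capitals.
Etv4: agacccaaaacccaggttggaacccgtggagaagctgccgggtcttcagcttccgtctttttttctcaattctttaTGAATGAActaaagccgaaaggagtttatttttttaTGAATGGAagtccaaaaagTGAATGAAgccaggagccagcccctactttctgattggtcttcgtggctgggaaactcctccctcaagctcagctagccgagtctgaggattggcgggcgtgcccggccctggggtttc
Etv5: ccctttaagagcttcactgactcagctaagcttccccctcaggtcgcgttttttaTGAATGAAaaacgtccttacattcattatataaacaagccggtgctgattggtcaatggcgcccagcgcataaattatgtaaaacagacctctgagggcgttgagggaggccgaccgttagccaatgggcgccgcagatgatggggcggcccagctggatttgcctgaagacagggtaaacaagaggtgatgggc
Dusp6: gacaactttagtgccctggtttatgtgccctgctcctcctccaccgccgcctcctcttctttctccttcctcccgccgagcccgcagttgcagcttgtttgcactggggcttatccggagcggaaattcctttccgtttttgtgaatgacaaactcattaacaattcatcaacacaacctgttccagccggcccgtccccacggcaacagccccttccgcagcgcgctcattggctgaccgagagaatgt
In Etv4, TGAATGAA begins at positions -174 and -119 and TGAATGGA at -138, counted from the start of the transcript, and in Etv5, TGAATGAA begins at -195. Both strands were searched, and the 4 octamers do not overlap each other in these windows. Any of them was found in 7 of the 36 windows of FGF-system genes with a position (Etv4, Etv5, Spry4, Spred3, Fgf16, Fgf21 and Fgf23) and in 3.03% of the 21757 windows of protein-coding genes. The motifs were chosen after the windows were seen, so these shares are descriptions and no test of enrichment. TGAATGAA alone was found in 1.22% of all windows and TGAATGGA in 0.915%. The genes that hold an octamer did not share a direction: Etv4, Etv5 and Spry4 fell, Spred3 rose and the other 3 were too low to test. The ETS core CCGGAA was found in 1 of the 36 windows (Spry4) against 12.4% of all windows, and CAGGAA in 6 against 24.5%. A match of letters is not a binding site, and its absence from these windows says nothing about sites elsewhere. Cic itself was at 263, 183, 292 and 233 normalized CPM in ESCs and 153, 185, 154 and 225 in NPCs, with overlap between the stages, and was not called (-0.44, adjusted p = 0.0690).

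Sprouty proteins block the path from receptor to RAS. Spry2 was at 212, 247, 246 and 231 normalized CPM in ESCs and 25.3, 33.1, 28.2 and 23.9 in NPCs, and Spry4 at 200.4, 163, 239 and 106 and 12.6, 11.5, 7.24 and 8.95. Both were lower in each NPC library than in any ESC library. Spry2 changed by -3.09 (SE 0.15, adjusted p = 1.05e-05) and Spry4 by -4.16 (SE 0.28, adjusted p = 2.63e-05). Spry1 went the other way, from 21.7, 22.2, 25.3 and 19.7 to 43, 31.1, 30.9 and 28.4. Its NPC libraries were all above its ESC libraries, NPC B/J replicate 1 most of all, and the log2 fold change of 0.58 (SE 0.17, adjusted p = 0.0185) was called. The call for Spry1 was lost on leaving out ESC B/J replicate 1 (adjusted p = 0.0536), ESC J/B replicate 2 (0.0539), NPC B/J replicate 1 (0.0677) or NPC J/B replicate 1 (0.0601). Spry3 was low, at 0.304, 0.898, 0.213 and 1.11 and 0.484, 1.28, 1.10 and 1.71 normalized CPM, and was not called (adjusted p = 0.306), except with a replicate block within each stage (log2 fold change 1.03, adjusted p = 0.0441). Its log2 fold change was 0.80, and 1.63 without ESC J/B replicate 2.

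The Spred proteins, which hold back RAS activation with neurofibromin, each behaved in their own way. Spred1 was at 117, 116, 75.5 and 127 normalized CPM in ESCs and 54.2, 94.3, 109 and 90.3 in NPCs, with overlap, and was not called (-0.33, adjusted p = 0.220). Spred2 fell, from 85.6, 66.7, 112 and 66.5 to 39.4, 36.3, 38.1 and 33.8, with a log2 fold change of -1.16 (SE 0.19, adjusted p = 0.00110). Spred3, the least abundant of the 3 per kb of exon, rose from 10.3, 15, 8.85 and 16.3 to 17.4, 22.5, 27.5 and 34.8, with a log2 fold change of 0.98 (SE 0.26, adjusted p = 0.00971). Neither of these shifts left an overlap between stages. Per kb of exon, the Sprouty and Spred genes with a length (all but Spry3) summed to 106 ± 9.84 CPM in ESCs and 35.0 ± 2.43 in NPCs. Spry2 and Spry4 made up 42.9% and 24.8% of the sum in ESCs and 15.3% and 4.42% in NPCs. Spred1 and Spry1 went from 13.4% and 4.37% to 31.7% and 20.2%.

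Dusp6, the phosphatase that removes the activating phosphates from ERK, was at 69.5, 109, 103 and 97.0 normalized CPM in ESCs and 32.9, 54.4, 42.2 and 39.7 in NPCs. All NPC libraries were below all ESC libraries, and the log2 fold change of -1.16 (SE 0.21, adjusted p = 0.00168) was called. The fall was 2.23-fold, against 20.2-fold for Etv5, 17.9-fold for Spry4 and 15.8-fold for Etv4. With housekeeping scaling, Dusp6 stood at -0.52 and the call was lost (adjusted p = 0.0977).

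The order of the genes by CPM per kb of exon differed between stages. In ESCs, Etv5 (103 ± 8.46) and Fgf4 (101 ± 4.30) stood at the top, within each other's spread, followed by Spry2 (45.5 ± 3.19), Etv4 (32.1 ± 14.2), Dusp6 (27.9 ± 5.13) and Spry4 (26.8 ± 8.62), of which Etv4, Dusp6 and Spry4 could not be ranked within their spread, nor Spry2 against Etv4. With the longest transcript as length, Etv5 (mean 151) and Fgf4 (108) lay apart. Fgfr1, at 8.72 ± 0.995, was below these. In NPCs, the leading genes were Fgfr1 (17.6 ± 2.42), Fgf15 (14.5 ± 8.59), Fgfr2 (13.1 ± 2.87), Dusp6 (12.5 ± 2.65) and Spred1 (11.2 ± 3.0) and each overlapped with its neighbour in this order within their SD. Dusp6 thus stood above Etv5 (5.12 ± 1.63), Etv4 (2.06 ± 0.480) and Spry4 (1.53 ± 0.371) in NPCs, whereas in ESCs Etv5 stood above Dusp6. The NPC order also depended on the length used. With the longest transcript, the NPC means were 36.6 for Fgfr1, 26.3 for Fgfr2, 24.5 for Fgf15, 14.8 for Dusp6 and 13.7 for Spred1.

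**Figure D4:**
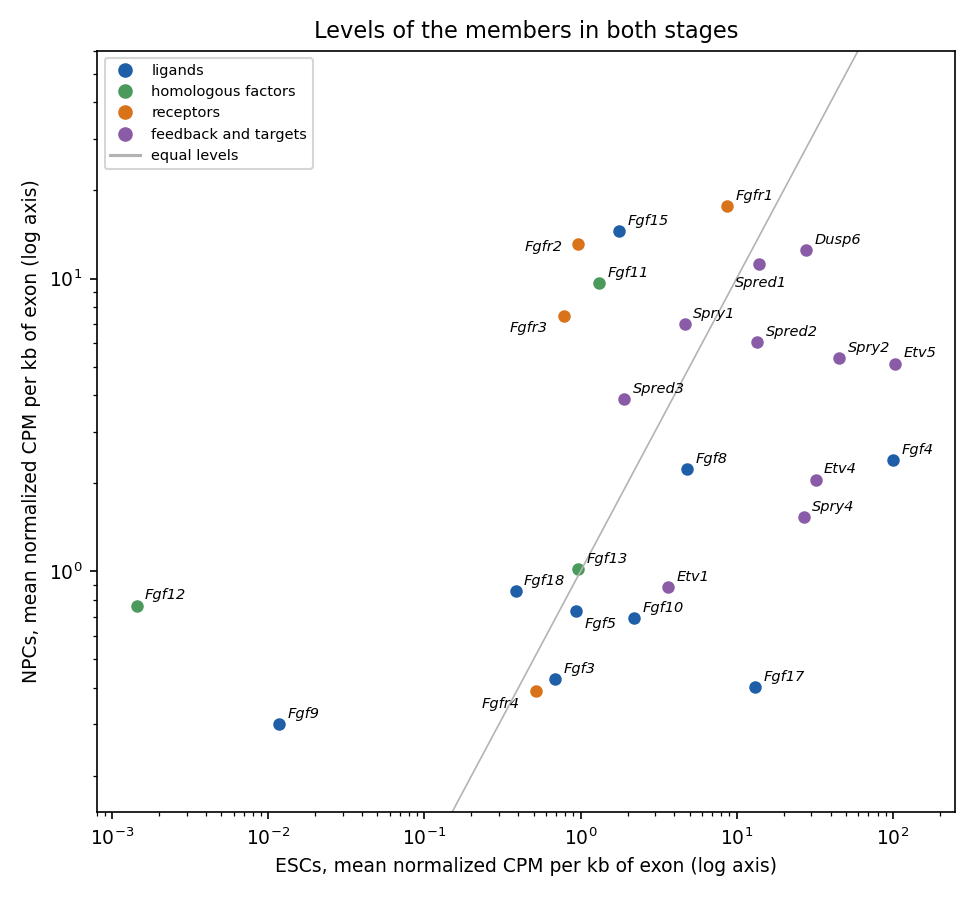
Mean normalized CPM per kb of exon in ESCs (x axis) and NPCs (y axis), both on log axes, for the 26 FGF-system genes that reach 0.3 in either stage, coloured by role, with a grey line at equal levels. Fgf4, Fgf17, Etv5, Etv4, Spry4 and Spry2 lie far below the line, and Fgf12, Fgf9, Fgfr2, Fgfr3, Fgf15 and Fgf11 far above it.

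Lists of other genes of the pathway were set beside these. The first held 28 genes that govern access of the ligand to the receptor (coreceptors, carrier proteins, heparan sulfate proteoglycans and the enzymes that modify heparan sulfate). Of 27 tested, 19 rose and 1 fell, where 37.5% and 31.9% of all genes tested did, with a median log2 fold change of 1.30 against 0.17 over all genes tested. The largest rises were those of Fgfbp3, a secreted carrier of FGFs (1.08 ± 0.757 normalized CPM in ESCs and 48.5 ± 28.2 in NPCs, SD, n = 4), Sdc3, a neuronal syndecan (4.34 ± 1.74 and 143 ± 17.7), and Gpc6, a glypican (1.80 ± 0.516 and 48.1 ± 19.2). Their log2 fold changes were 5.48 for Fgfbp3, 5.07 for Sdc3 and 4.69 for Gpc6 (adjusted p of 1.27e-04, 1.66e-05 and 2.70e-05). Klb, the coreceptor that lets FGF15 and FGF21 bind, was the gene called lower, at -3.24 (adjusted p = 0.0409). The ESC level of Klb came mostly from ESC J/B replicate 1, at 13.5 normalized CPM against 0.128 to 1.30 in the other ESC libraries and 0.0570 to 0.452 in NPCs, and without that library no gene of the list fell. Leaving out ESC B/J replicate 1 or any 1 of the NPC libraries ended the call as well. ESC J/B replicate 1 also had the highest Fgfr4 of all 8 libraries and the highest sum of mesenchymal markers in ESCs, 69.6 normalized CPM against 4.95 to 11.8, and whether these values are connected was not tested. Kl, the other coreceptor of this kind, did not exceed 0.291 normalized CPM and was not tested.

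The second list held 23 genes of the relay from receptor to ERK. Of these, 6 rose and 7 fell, where 37.5% and 31.9% of all genes tested did, and their median of 0.05 was close to that of all genes tested. Sos2, an activator of RAS, rose by 1.75 (adjusted p = 2.99e-04), Nf1, the RAS inhibitor neurofibromin, by 1.15 (0.0101) and the kinase Braf by 1.14 (8.65e-05) on the log2 scale. Gab1, an adaptor, was at -1.09 (adjusted p = 0.00103) and Cbl, a ubiquitin ligase that removes receptors, at -0.69 (0.0205). The split of this list depended on the scaling, as did that of all genes: 13 rose and 1 fell with library totals, where 48.9% and 20.9% of all genes did, and 13 rose and 0 fell with housekeeping scaling, where 51.6% and 17.2% did. The third list held 20 other genes known to respond to ERK, of which 8 rose and 3 fell, with a median of 0.36. Of all genes tested, 37.5% rose and 31.9% fell, so the share of the list that rose is near the background and the share that fell is below it, with no test of that difference. Rgs16, a regulator of G protein signalling, Phlda1 and the ETS factor Elk3 rose most, by 3.21, 3.14 and 2.51 (adjusted p of 0.00104, 6.59e-04 and 5.24e-04). The 3 that fell were the early response gene Ier2 (-1.76), Il17rd (-1.72), which encodes the FGF inhibitor Sef, and Myc (-0.98), with adjusted p of 2.91e-05, 1.00e-04 and 0.0286. Among the other genes that rose were Fos (2.23, adjusted p = 0.0104) and Dusp5 (1.10, adjusted p = 0.00738).

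Each cross was then read alone. Within B/J, 8 of the 30 genes rose and 11 fell, where 30.1% and 25.6% of all genes did. Within J/B, 9 rose and 10 fell, against 29.1% and 25.3% of all genes. Fgf4 changed by -4.78 in B/J and -6.53 in J/B, Etv5 by -4.21 and -4.47, Fgfr2 by 3.98 and 3.49, and Fgf15 by 2.14 and 3.63 on the log2 scale, all called in both crosses. Spred3 and Fgf14 were called in J/B alone, and Fgf3 and Spry1 in B/J alone.

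A difference between the crosses in these changes was called for 0 of the 30 genes in edgeR's quasi-likelihood test, and 0% of all genes tested were called. At an unadjusted p under 0.05, edgeR and limma-voom also gave 0 of the 30 and DESeq2 gave 2, and both DESeq2 and limma-voom called 0 of the 30. Over all genes, DESeq2 called 11 and limma-voom 0. Between ESCs of the J/B and B/J crosses, 0 of the 30 genes were called (0% of all genes), 0 had an unadjusted p under 0.05 in edgeR, and DESeq2 and limma-voom called 0 of the 30, while DESeq2 called 10 of all genes and limma-voom 0. Between the NPCs of both crosses, edgeR called 0 of the 30 genes and 0.0061% of all genes, and DESeq2 and limma-voom called 0 of the 30, although DESeq2 called 70 of all genes. There 4 had an unadjusted p under 0.05 in edgeR: Fgf3, Fgf15 and Fgfr3 were higher in J/B, by 1.88, 1.37 and 1.15, and Fgf4 was at -1.77 on the log2 scale, with adjusted p from 0.755 to 0.766. The 2 J/B NPC libraries of Fgf3, Fgf15 and Fgfr3 lay above both B/J libraries, and those of Fgf4 below.

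The ESC libraries also differed by replicate number. Of the 30 genes, 11 were higher and 10 lower in the library numbered 2 of both crosses, and 9 went in opposite directions. Over all genes tested, 34.0% were higher and 34.2% lower in both, so these counts are near the background. Fgf8, Fgf5 and Fgfr2 were among the higher ones, and in Fgf8 the library numbered 2 stood 14.3 times above the one numbered 1 in B/J and 13.3 times in J/B. Etv4, Spry4 and Fgfr3 were among the lower ones. Markers of the epiblast moved with them: Otx2, a transcription factor of the epiblast that leaves the naive state, was at 1.52, 26.7, 1.12 and 25.6 normalized CPM, and the DNA methyltransferase gene Dnmt3b at 329, 755, 143 and 737. The naive factors Esrrb, at 1197, 592, 1029 and 488, and Nanog, at 855, 633, 971 and 548, were lower in the libraries numbered 2. Of the 8 naive markers, 5 were lower in the library numbered 2 of both crosses and 2 higher (Klf2, at 207, 348, 196 and 325, and Zfp42, at 129, 137, 114 and 119.7), while Klf4 differed between crosses. Of the 5 markers of the formative or primed epiblast, 4 were higher and Dnmt3a, at 109, 149, 459.6 and 159, differed between crosses. Of the 5 streak and caudal markers, T, at 6.60, 84.4, 8.96 and 65.8, and Mixl1, at 0.477, 13.6, 0.80 and 5.93, were higher in the libraries numbered 2 of both crosses and Cdx1, at 116, 21.0, 163 and 11.7, was lower. The 8 naive markers summed to 4095, 3095, 4766 and 2729, and the 5 epiblast markers to 527, 1064, 649 and 1061. In NPCs, 14 of the 30 genes were higher and 5 lower in the library numbered 2 of both crosses, against 32.7% and 33% of all genes tested. The numbers are only names in the labels, these libraries were noticed by their values, and no test of this pattern was made.

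**Figure D5:**
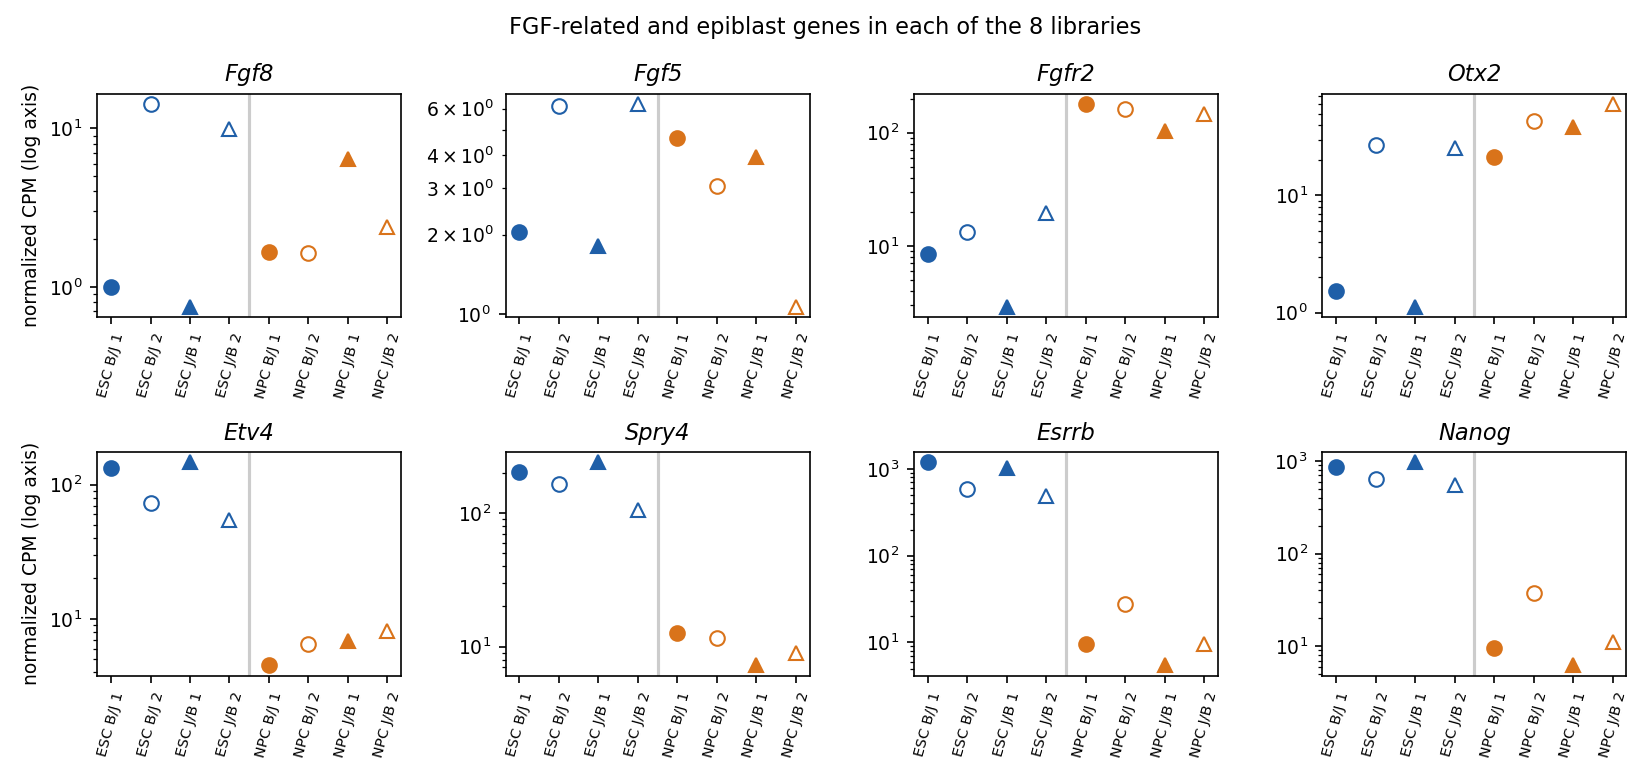
Normalized CPM on log axes in each of the 8 libraries (ESCs blue, NPCs orange, B/J circles, J/B triangles, replicate 1 filled, replicate 2 open) for the FGF-system genes Fgf8, Fgf5, Fgfr2, Etv4 and Spry4 and the epiblast genes Otx2, Esrrb and Nanog. In ESCs the open symbols lie above the filled ones of their cross in the upper row and below them in the lower row.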

How the data were processed

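Each file the authors deposited lists, per gene, the raw counts of both alleles together, without normalization. TopHat2 was used by the authors for alignment, with a genome (mm39) in which SNP positions were masked and with gene models based on refGene, and properly paired, confidently mapped reads were kept. HTSeq, DESeq2 and edgeR are named in the submitters' processing notes without a role, and none of the sources used here gives the strand setting of the counting. The 5 closing entries of each table that name no gene were left out (reads without a gene 5.76% to 10.9% and ambiguous reads 0.355% to 0.554% of each table's total). Depth was 22537138 to 32706015 reads on genes, and intervals cover counting error only.

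The 37 genes and all lists were chosen with earlier results of these data known. Counts of all 8 libraries were fitted in edgeR 4.0.16 (R 4.3.3) with 4 group means, TMM factors (0.820 to 0.885 in ESCs, 1.14 to 1.21 in NPCs), the default expression filter (minimum count 10) and robust quasi-likelihood tests, adjusted over 16399 genes. The fit was tested on simulated counts. Every gene matching the symbols was named. From each pathway list, the 3 largest rises and 3 largest falls were named among calls with a mean of at least 1 CPM over all libraries. Cic, Fos, Dusp5, Kl, En1, T and the epiblast genes were named after their values were seen. Genes were placed with GENCODE annotation of GRCm39 (the same build as mm39), where Spry3 was not matched to an assembled chromosome. Promoter windows are the 250 bases before the start of the Ensembl canonical transcript, and the motifs were chosen after the windows were seen. Alternatives were DESeq2 1.42.0, limma 3.58.1 (voom), other scalings and filters, replicate blocks and leaving out each library. The block within each stage and the pooled-count ratio were chosen after seeing the data. Allelic data and other assays of the study were not analysed here. A gene of the relay list that the naming rule selects is not reported here.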

Additional observations from a re-analysis of the deposited data

Results flagged for a closer look

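For 6 of 60 gene and stage groups of 4 libraries, 1 library lay far from the other 3 by Dixon's test, where chance gives about 1 in 20. In ESC J/B replicate 1, Fgf11 was at 5.97 normalized CPM (3.20 to 3.56 in the other ESC libraries), Fgfr4 at 4.80 (1.28 to 1.71), and Fgf12 had its only ESC read, 0.053 normalized CPM, with 0 in the others, a case in which the measure is fixed and tests nothing. In ESC B/J replicate 1, Fgf17 was at 31.7 (19.5 to 21.4). In NPC J/B replicate 1, Fgf8 was at 6.40 (1.63 to 2.39) and Fgf18 at 2.89 (1.45 to 1.68).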

How the results depend on the processing

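Over 507 fold changes of the 30 tested genes under alternatives, 470 kept their direction and their side of the threshold, 11 lost the call, 9 gained it and 17 changed sign, each of these 17 for a gene not called at first. Scaling by library totals turned Fgf13 to 0.43, Fgf5 to 0.0657, Fgfr4 to 0.17 and Spred1 to 0.14, and housekeeping scaling turned them to 0.60, 0.16, 0.36 and 0.29. Leaving out a library turned Fgf13 in 4 cases (0.06 without ESC B/J replicate 2, 0.32 without ESC J/B replicate 2, 0.28 without NPC B/J replicate 1, 0.10 without NPC J/B replicate 1), Fgf5 (0.12 without ESC B/J replicate 2, 0.20 without ESC J/B replicate 2), Fgf8 (0.22 and 0.18, the same libraries) and Fgfr4 (0.14 without ESC J/B replicate 1), none of them called. Over the libraries left out, the values ranged from -0.70 to 0.32 for Fgf13, from -1.01 to 0.20 for Fgf5, from -1.70 to 0.22 for Fgf8 and from -0.60 to 0.14 for Fgfr4.

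Within each stage, the replicate differences were partly shared by both crosses, with correlations across genes of 0.518 in ESCs and 0.587 in NPCs. Between stages they correlated at only 0.0489 to 0.0915, so there the replicate numbers pair samples by name alone. The main fit holds no term for the replicate number. With the replicate block, 11 genes rose and 11 fell, where 39.9% and 33.3% of all genes did. With the replicate block within each stage, 13 rose and 11 fell, where 42.5% and 35.9% of all genes did. Of 306 counts of calls, 290 stayed within 1.5 times. The genes of ligand access called lower were 0 with library totals, housekeeping scaling, limma-voom, no filter and the replicate block, and 0 to 1 on leaving out a library. Relay genes called higher were 13 with library totals and 13 with housekeeping scaling, and those called lower 1 and 0. Other ERK-responsive genes called lower were 5 with the replicate block within each stage, where 35.9% of all genes were. With the longest transcript as length, Fgfr1 made up 82.3% of the receptor sum in ESCs and Fgfr4 0.559% in NPCs. Causes were not tested except where the setting itself removes libraries or rescales all genes. Depth limits Fgf2, Fgf9 and Fgf12, whose ESC values rest on 3, 6 and 1 reads.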
